A study of Drosophila melanogaster with 2 samples.

Results

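The Bithorax complex of Drosophila melanogaster was examined for binding of Tailless, an orphan nuclear receptor and the product of the terminal gap gene tll. The complex was taken as the sequence from the outer end of Ubx to the outer end of Abd-B, 315.6 kb on chromosome arm 3R (dm6, positions 16656623 to 16972236), with abd-A between them. A summit, the position of highest enrichment inside a peak interval, was a member when it lay in this sequence. By that rule 47 of the 4045 summits in the authors' thresholded list were members, as were 216 of 30000 in the pooled list, 223 of 30000 in the list of replicate 1 and 201 of 30000 in that of replicate 3.

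Chromatin immunoprecipitation with an antibody to GFP (the labels also name tll as its target) was followed by sequencing in 1 group of 2 biological replicates, numbered 1 and 3. Both were whole embryos of 0 to 4 h, males and females pooled, from the transgenic strain 8T-GFP, in which Tailless carries GFP at its C terminus. The thresholded list held the pooled summits past a threshold on the irreproducible discovery rate, a measure of how well ranked peaks recur between replicates, and its 4045 entries were the 4045 pooled summits with the highest signal value. The signal value is the authors' peak caller's own measure of a summit against a control, on a scale that is not stated. Control libraries, other stages and embryos without the tag were not analysed here. In whole embryos the share of nuclei bound and the binding in each nucleus cannot be told apart, and the labels do not say whether the untagged tll gene was present. The lists carry no read counts, and the sequencing depth is therefore unknown. With a single group there was no contrast to test: intervals on shares are exact binomial 95% intervals that cover counting error only, and differences between regions are given as values without a test.

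The 3 Hox genes of the complex encode homeodomain proteins that give the posterior thorax and the abdominal segments their identity, Ubx foremost, abd-A in the anterior and middle abdomen and Abd-B in the most posterior segments. Each is controlled by an array of regulatory domains laid out along the chromosome in the order of the segments they act in: the abx/bx domain inside Ubx and the bxd/pbx domain upstream of it, then the iab domains of abd-A, then the iab domains of Abd-B. Each domain holds enhancers that read gap and pair-rule proteins in the early embryo and Polycomb response elements that keep the resulting state later, and boundary elements separate neighbouring domains. All 3 genes are transcribed towards lower coordinates, so the sequence upstream of each lies at higher coordinates. The coordinates of the domain boundaries were in none of the sources used here, so summits are placed by annotated genes and noncoding RNAs, several of which carry the name of the domain they cross.

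The sequence around the leading summits is shown for 8 summits that lead the complex: the strongest of each of 5 segments (the body of Ubx, Ubx to abd-A, the body of abd-A, abd-A to Abd-B, the body of Abd-B), and the 3 strongest of the rest. Each run is plus-strand sequence from RefSeq's Release 6 assembly (dm6), the summit with 50 bases to either side. Capitals mark the Tailless word AAGTCA, and also GCCAT, the core of the word bound by the Polycomb group protein Pho. Either word may stand on the other strand, where GCCAT reads ATGGC.
Ubx body, chr3R:16701005-16701105: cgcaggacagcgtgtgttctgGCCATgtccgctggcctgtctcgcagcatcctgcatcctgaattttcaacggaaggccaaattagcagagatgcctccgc
Ubx body, chr3R:16702976-16703076: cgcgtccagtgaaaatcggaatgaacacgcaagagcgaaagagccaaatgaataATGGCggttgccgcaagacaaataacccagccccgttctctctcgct
Ubx to abd-A, chr3R:16742434-16742534: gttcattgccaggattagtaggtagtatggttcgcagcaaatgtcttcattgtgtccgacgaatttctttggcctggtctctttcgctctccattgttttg
Ubx to abd-A, chr3R:16764196-16764296: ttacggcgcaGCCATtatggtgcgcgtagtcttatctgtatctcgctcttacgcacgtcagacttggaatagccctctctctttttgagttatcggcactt
abd-A body, chr3R:16826376-16826476: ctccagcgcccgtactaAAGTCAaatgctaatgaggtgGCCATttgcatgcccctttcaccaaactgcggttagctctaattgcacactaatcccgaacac
abd-A to Abd-B, chr3R:16869503-16869603: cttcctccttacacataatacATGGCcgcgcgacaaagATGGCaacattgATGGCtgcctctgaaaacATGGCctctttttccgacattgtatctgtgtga
abd-A to Abd-B, chr3R:16915915-16916015: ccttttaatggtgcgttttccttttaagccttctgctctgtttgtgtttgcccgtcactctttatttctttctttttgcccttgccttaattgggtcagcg
Abd-B body, chr3R:16936439-16936539: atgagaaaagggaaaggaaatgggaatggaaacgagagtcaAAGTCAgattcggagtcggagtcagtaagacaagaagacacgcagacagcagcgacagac

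The complex was densely occupied. It held 14.9 thresholded summits per 100 kb, against 3.02 over all 6 chromosome arms, a ratio of 4.93. Its 47 summits lay in 41 intervals, of which 6 held a pair of summits each. Of 31 windows of 10 kb laid end to end across the complex, 22 (71.0%) held at least 1 thresholded summit, against 18.6% of 13385 windows on the arms. The most in any window of the complex was 3, so the summits were spread over the locus and not stacked at a few places. The outer 44.4 kb of Ubx and the outer 11845 bp of Abd-B held no thresholded summit. None lay in the 20 kb beside Ubx or in the 20 kb beside Abd-B either, which are short stretches at the density of the arms. Each of these flanks held 10 pooled summits (50 per 100 kb, against 22.4 over the arms), with signal values up to 176.2 and 178.7, below the lowest thresholded value of 194.6. The genes next to the complex, modSP 961 bp beyond Ubx and VhaM9.7-d 2968 bp beyond Abd-B, lie in these flanks. The nearest thresholded summits outside were 25514 bp beyond Ubx, in an intron of Fas1 (signal value 217.5), and 24046 bp beyond Abd-B, 164 bp from a start of CG3534 (247.1).

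**Figure D1:**
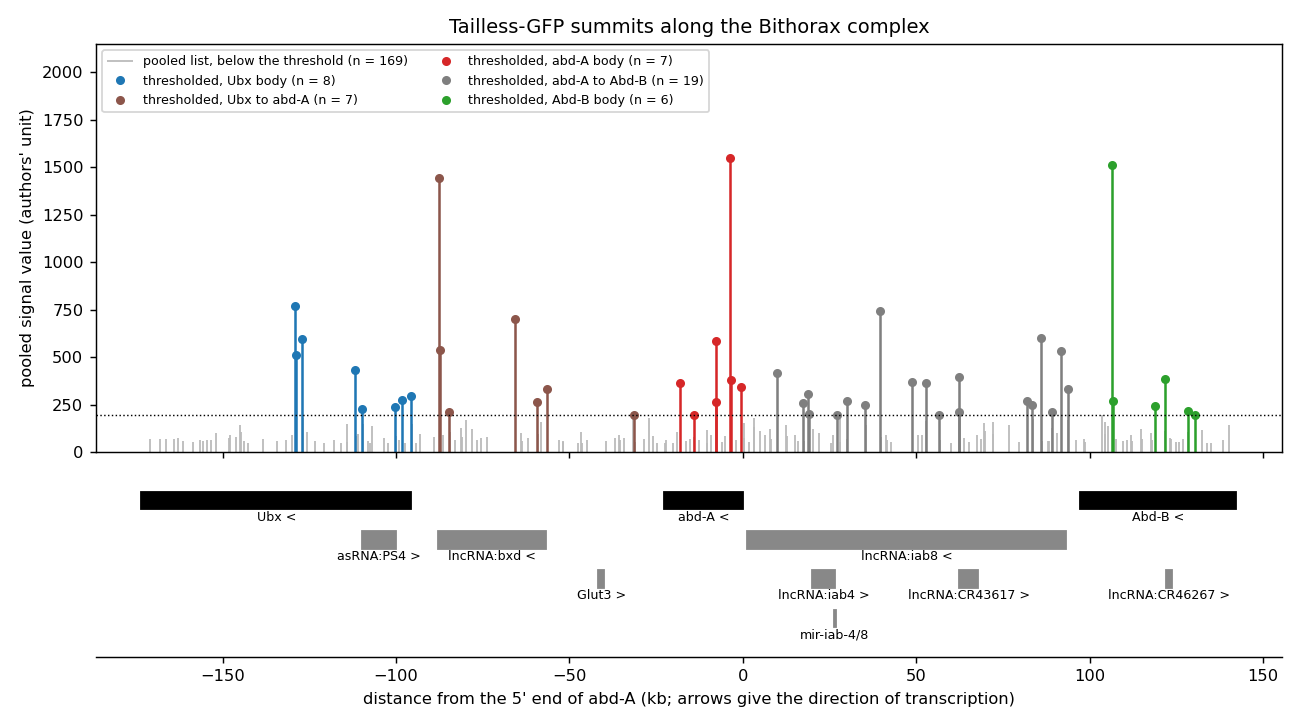
Signal value of each pooled summit (y axis, the authors' unit) against its distance in kb from the 5′ end of abd-A (x axis), with annotated genes drawn to scale below. Coloured points are the 47 thresholded summits by segment, grey lines the 169 pooled summits below the threshold, and the dotted line the lowest thresholded value of 194.6; the 3 tallest points stand just upstream of Ubx, inside abd-A and inside Abd-B.

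A larger share of the pooled summits of the complex was in the thresholded list than over the arms: 47 of 216 (21.8%, interval 16.4 to 27.9%), against 13.5% of the whole pooled list. The Antennapedia complex, the other Hox cluster of the fly and also on 3R, had like values. It held 52 thresholded summits over 337.8 kb (15.4 per 100 kb), with 22.0% of its pooled summits in the thresholded list. All summits between the outer ends of its Hox genes were counted, whichever start was nearest. The median signal value of the thresholded summits was 305.2 in the Bithorax complex, 407.1 in the Antennapedia complex and 286.7 over the arms. Signal values exceeded 500 at 12 of 47 summits in the Bithorax complex, 21 of 52 in the Antennapedia complex and 683 of 4045 over the arms.

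**Figure D2:**
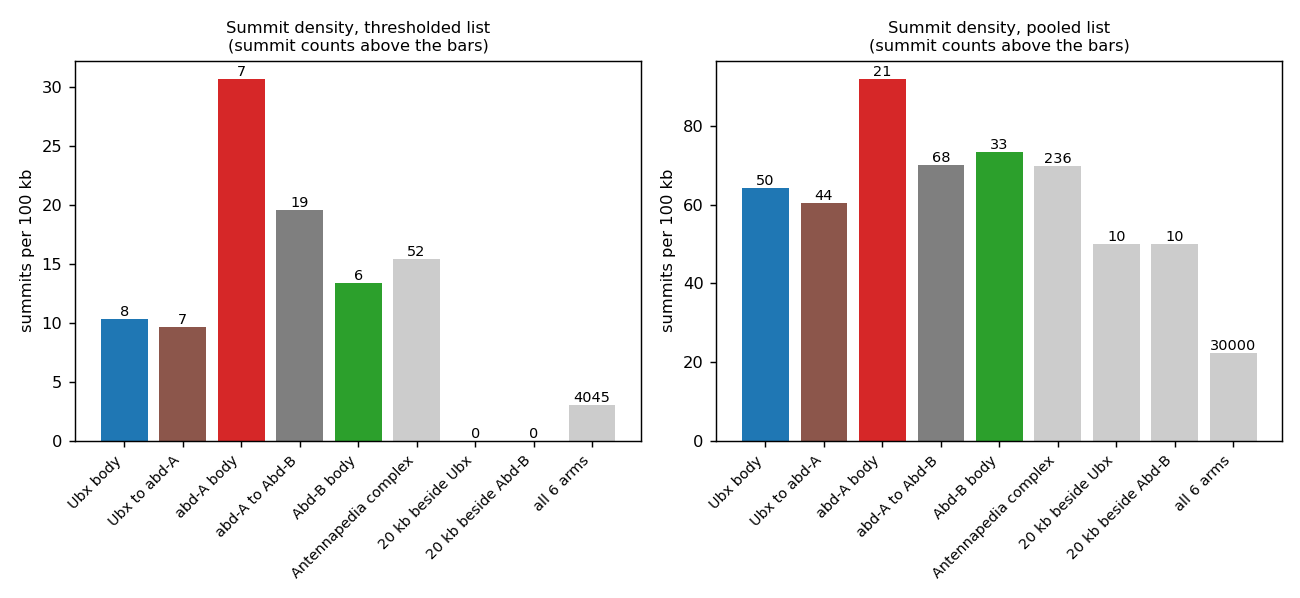
Summits per 100 kb (y axis) in each segment of the Bithorax complex, in the Antennapedia complex, in the flanks of 20 kb and over all arms (x axis), for the thresholded list on the left and the pooled list on the right. Numbers above the bars are summit counts; the abd-A body has the tallest bar in both panels, and the flanks have none in the thresholded list and 50 per 100 kb in the pooled list.

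Within the complex the summits were unevenly divided. The body of abd-A held 7 thresholded summits in 22.8 kb (30.7 per 100 kb), and the sequence between abd-A and Abd-B, which holds most of the iab domains, held 19 in 97.2 kb (19.6 per 100 kb). The body of Abd-B held 6 in 45 kb (13.3 per 100 kb), the body of Ubx 8 in 77.8 kb (10.3 per 100 kb), and the sequence between Ubx and abd-A 7 in 72.8 kb (9.62 per 100 kb). The pooled list was more even, at 92.0 per 100 kb in the body of abd-A and between 60.5 and 73.3 in the other 4 segments. The share of pooled summits in the thresholded list was 33.3% in the body of abd-A, 27.9% between abd-A and Abd-B, and between 15.9% and 18.2% in the other 3, and the intervals of all 5 overlapped.

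Of the summits, 3 stood above all others: 1 upstream of Ubx, 1 in abd-A and 1 in Abd-B. The summit in an intron of abd-A (position 16826426, 1679 bp downstream of the nearest start of that gene) had signal values of 778 in replicate 1 and 760 in replicate 3, and 1552 in the pooled list, where it ranked 33. The summit in an intron of Abd-B (16936489, 2247 bp upstream of the start of the shortest transcripts) had 844 in replicate 1 and 670 in replicate 3, and 1512 in the pooled list, at rank 38. The summit at the 3′ end of lncRNA:bxd (16742484, 8058 bp upstream of the Ubx start, in an exon of the noncoding RNA) had 716 in replicate 1 and 717 in replicate 3, and 1446 in the pooled list, at rank 42. Each replicate list led with these same 3 places in the complex, in another order: Abd-B, abd-A and bxd in replicate 1, and abd-A, bxd and Abd-B in replicate 3. On the log2 scale the replicates averaged 9.59 ± 0.02 at abd-A, 9.55 ± 0.24 at Abd-B and 9.48 ± 0.00 at bxd (SD, n = 2). The abd-A summit was above the bxd summit in both replicates, and the place of the Abd-B summit among the 3 was within the spread of its replicates. The next summit in the complex had a pooled signal value of 768.

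In Ubx the summits lay in the upstream part of the gene. The stretch of 44.4 kb from its 3′ end to the first summit held 23 pooled summits and none that was thresholded, the highest at 144.2, and was the longest such stretch in the complex. The strongest summit of the gene was intronic (16701055), 33371 bp downstream of the Ubx start, with signal values of 435 in replicate 1 and 329 in replicate 3 and a pooled value of 768. A second summit of the same interval lay at 16701258 with a pooled value of 512, but the nearest summit in replicate 3 had only 31.8, against 125 in replicate 1, and replicate 3 split this interval at other positions. The summit at 16703026, with 321 in replicate 1 and 281 in replicate 3, completed the cluster. The introns of Ubx hold the abx/bx domain.

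Nearer the Ubx start, 4 further intronic summits had pooled values from 228.0 to 429.9, the highest at 16718174. A pair of them lay in exons of asRNA:PS4, a noncoding RNA transcribed against Ubx: 1 at 16720320, 75 bp from a start of that RNA, and 1 at 16729695. Replicate 1 gave them 100 and 149, and replicate 3 gave them 122 and 91.3. The value of 100 is that of a replicate 1 summit at 16720485, 165 bp from 16720320. A further pooled summit at 16720532 was matched to the same value, so the order of the pair cannot be compared between the replicates. The Ubx promoter itself had a summit of moderate height at 16734331, 95 bp downstream of the start in the 5′ untranslated exon, with 155 in replicate 1, 142 in replicate 3 and a pooled value of 297.6. The value of 142 is that of a replicate 3 summit at 16734436, 105 bp away and just upstream of the start. A further pooled summit at 16734530 was matched to the same value.

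The bxd/pbx domain upstream of Ubx is crossed by lncRNA:bxd, a noncoding RNA of 31065 bp, and 5 of the 7 summits between Ubx and abd-A lay inside it. Beside the leading summit, its interval held another at 16742689, with 237 in replicate 1, 163 in replicate 3 and a pooled value of 535. An intronic summit at 16764246 had 366 in replicate 1, 346 in replicate 3 and a pooled value of 698, rank 6 in the complex. The RNA's own 5′ end had a summit 348 bp upstream (16773537; 173 in replicate 1, 158 in replicate 3 and 330 pooled). Beyond it stood a stretch of 25.1 kb without a thresholded summit, across the glucose transporter gene Glut3 and lncRNA:CR44945, with 13 pooled summits up to 190.6. The only thresholded summit between that stretch and abd-A was at 16798604, with 88.6 in replicate 1, 129 in replicate 3 and a pooled value of 197. The protein-coding genes CG31275 and Glut3, which lie inside the complex and are not Hox genes, held neither thresholded nor pooled summits. The short noncoding RNAs lncRNA:CR45750 and lncRNA:TS16 held no thresholded summit, and their starts were 1996 and 2695 bp from that at 16798604.

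In abd-A, 6 of the 7 summits were intronic. Beside the leading one, its interval held a second at 16826647, with 278 in replicate 1, 168 in replicate 3 and a pooled value of 378. Another pair shared an interval at 16822214 and 16822418, with pooled values of 585 and 263. The first of them had 330 in replicate 1 and 239 in replicate 3, and the second had 110 and 107. The summit at 16811924 had 178 in replicate 1 and 181 in replicate 3. At the promoter a summit at 16829368, in the 5′ untranslated exon and 384 bp downstream of a start, had 174 in replicate 1, 180 in replicate 3 and a pooled value of 342. The weakest, at 16815826, had 103 and 91.8 and was the only member outside the 4045 strongest summits of both replicate lists.

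Between abd-A and Abd-B the summits formed a long row of mostly moderate height. Its 19 members had a median pooled signal value of 270.8 and ranged from 196.9 to 742.8. Of these, 18 lay in introns of lncRNA:iab8, a noncoding RNA that starts near Abd-B and runs through the iab domains towards abd-A for 92116 bp. The strongest summit was at 16869553, 39.5 kb upstream of the 5′ end of abd-A, with 403 in replicate 1, 348 in replicate 3 and a pooled value of 743. It lay 13211 bp from the start of mir-iab-8, the nearest annotated start. Next came 16915965 (280 in replicate 1, 329 in replicate 3, 599 pooled) and 16921652 (303 in replicate 1, 233 in replicate 3, 534 pooled), both in the part of the RNA nearest to Abd-B. The summit at 16839883, closest to abd-A, had 227 and 193 and a pooled value of 417.

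Several summits of this row stood next to starts of noncoding RNAs. The 5′ end of lncRNA:iab8 had a summit 461 bp upstream (16923692), with 170 in replicate 1, 169 in replicate 3 and a pooled value of 334. A shorter form of the RNA started 103 bp from the summit at 16892201 (206 in replicate 1, 198 in replicate 3, 397 pooled). The other summit of that interval, at 16892404, was 6 bp from the start of lncRNA:CR43617, which is transcribed the other way, and had 154 in replicate 1 but 64.1 in replicate 3. The shortest forms of lncRNA:iab8 started 116 and 161 bp from the summit at 16848830 (178 in replicate 1, 141 in replicate 3, 305 pooled). The summit at 16849029, with 73.1 in replicate 1, matched the same entry of replicate 3 as that at 16848830, so the 2 were told apart only in replicate 1. The RNA lncRNA:iab4, which is the precursor of the mir-iab-4 microRNA that represses Ubx, held no thresholded summit, and its nearest was 975 bp from its 5′ end with a pooled value of 198.

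The longest stretch without a thresholded summit in this row was 19.6 kb, between 16892404 and 16911955, with 10 pooled summits up to 157.6. It spanned lncRNA:CR43617 and the 5′ end of MSAmiP, a protein-coding gene annotated on the same strand as lncRNA:iab8, whose start at 16896293 was 3889 bp from the nearest thresholded summit.

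In Abd-B all 6 summits were intronic, and 1 stood far above the others. After the leading summit at 16936489 the next in the gene was at 16951652, with 177 in replicate 1, 216 in replicate 3 and a pooled value of 384, 255 bp from the start of lncRNA:CR46267. The second summit of the leading interval, at 16936690, had 207 in replicate 1 and 45.9 in replicate 3, a ratio of 4.50, which was the largest ratio of replicate 1 to replicate 3 among the 47. The remaining 3 had pooled values from 195.2 to 242.8. Of the 6 annotated starts of Abd-B, 1 had a thresholded summit within 500 bp, at 110 bp (16960391; 120 in replicate 1, 71.6 in replicate 3, 195 pooled). Pooled summits below the threshold lay 87, 468, 58 and 11 bp from 4 other starts, with signal values of 159.6, 121.0, 47.2 and 62.4. The longest transcript, which starts at 16972236, had its nearest pooled summit at 2198 bp.

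Summits of the complex were mostly far from the starts of protein-coding genes, and starts of noncoding RNAs were not counted here. Within 500 bp of the start of a protein-coding gene lay 3 of 47 (6.38%), 1 each at Ubx, abd-A and Abd-B, against 37.6% of all thresholded summits. In the Antennapedia complex 10 of 52 (19.2%) did. The pooled summits of the Bithorax complex had a like share, 12 of 216 (5.56%), against 29.7% of the whole pooled list. The median distance to the nearest such start was 12279 bp in the Bithorax complex, 5324 bp in the Antennapedia complex and 1447 bp over all thresholded summits. None of the 47 lay in coding sequence, against 1.53% of all thresholded summits. A rough upper limit of 3 over 47, which is not an exact interval, is 6.38%. By annotation 7 were in introns of Ubx, 6 in introns of abd-A, 6 in introns of Abd-B, 18 in introns of lncRNA:iab8, 5 in lncRNA:bxd and 3 in intergenic sequence, and the 2 at the Ubx and abd-A promoters were in 5′ untranslated exons. By the gene with the nearest start within 20 kb, which need not be the gene regulated, 11 thresholded summits went to abd-A, 10 to Abd-B and 7 to Ubx.

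The replicates gave like pictures of the complex. The intervals of 38 of the 47 summits (80.9%) were overlapped by one of the 4045 strongest summits in both replicate lists. Over all thresholded summits the share was 78.3%, so recurrence by interval was near that of the whole list. The share was 17 of 19 between abd-A and Abd-B, 6 of 7 in abd-A, 6 of 8 in Ubx, 5 of 7 between Ubx and abd-A and 4 of 6 in Abd-B. The 9 others had pooled values from 195.2 to 234.7, all in the lower part of the thresholded range. Because intervals were matched, the second summit of an interval could pass through its stronger neighbour. That at 16701258 (pooled value 512) passed, though its nearest match in replicate 3 ranked 23087. With a replicate summit required within 100 bp, 32 of 47 (68.1%) were shared. The share under this rule was not computed over all thresholded summits, and the 78.3% above is for interval overlap. Whether 68.1% is usual for the series is therefore not known. Across the 47 summits the replicate signal values were correlated with Pearson's r of 0.78 (log10 values) and Spearman's rho of 0.75. With the strongest summit of each of the 41 intervals, these were 0.88 and 0.81. The summits are not replicates, they were chosen from the pool of these same libraries, and both libraries share 1 control. Replicate 1 over replicate 3 had a median ratio of 1.13, against 1.11 over all thresholded summits, and 4 of the 47 differed by more than 2-fold between the replicates in either direction. Of those 4, 3 were the weaker summit of a shared interval. Differences of more than 2-fold were not counted over all thresholded summits. The median SD of the log2 replicate values was 0.23 in the complex and 0.21 over all thresholded summits with a match in both replicates.

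**Figure D3:**
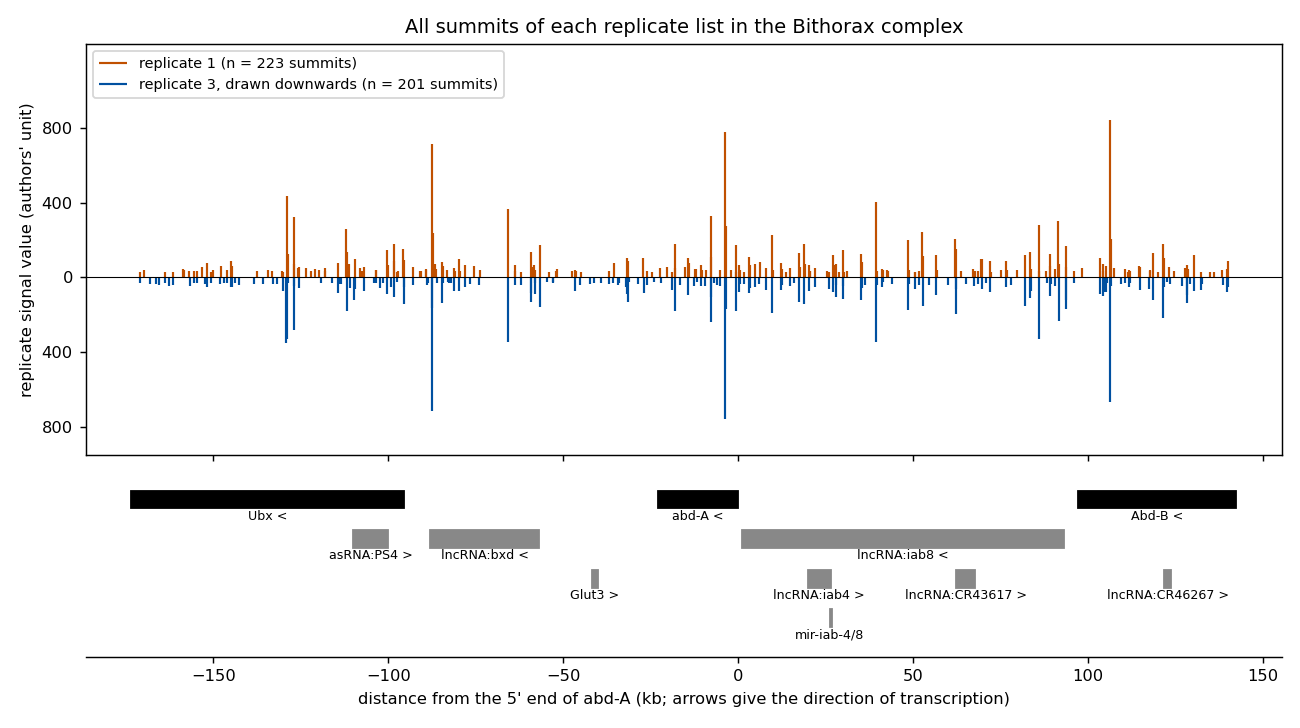
Signal value of every summit in the replicate lists (y axis, the authors' unit; replicate 1 upwards, replicate 3 downwards) against distance in kb from the 5′ end of abd-A (x axis), with annotated genes below. The tallest lines of both replicates stand at the same 3 places, with values from 670 to 844.

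**Figure D4:**
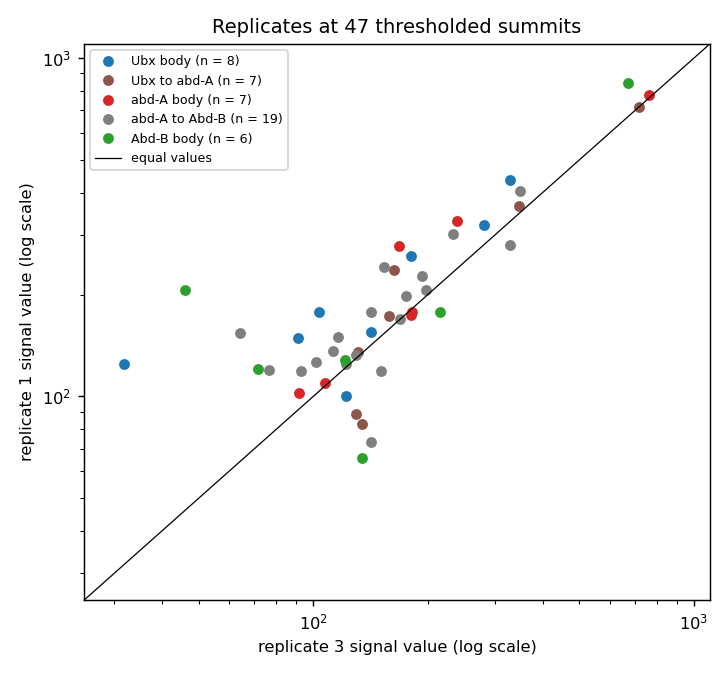
Signal value in replicate 1 (y axis) against replicate 3 (x axis), both on log scales, for the 47 thresholded summits, coloured by segment, with a line of equal values. The leftmost points, at replicate 3 values of 31.8 and 45.9, are second summits of shared intervals in Ubx and Abd-B.

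The weakest members and the strongest pooled summits left outside the threshold were close in value. Just inside stood 16960391 in Abd-B (195.2) and 16798604 between Ubx and abd-A (196.6). Just outside stood 16933506 in a 5′ untranslated exon of Abd-B (193.2; 104 in replicate 1, 89.9 in replicate 3) and 16798273 between Ubx and abd-A (190.6; 105 in replicate 1, 90.3 in replicate 3). The last of these lay beside the member at 16798604.

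The Tailless word was infrequent at summits of the complex. AAGTCA lay within 50 bp of 4 of 47 (8.51%, interval 2.37 to 20.4%), against 13 of 52 in the Antennapedia complex, 15.0% of all thresholded summits and 15.6% of those over 500 bp from a start. Windows of the same size 500 bp to either side held it at 10.6% in the complex and 4.80% over all thresholded summits. The interval in the complex includes the share over all thresholded summits, so a lower share was not shown at this number of summits. The 4 summits with the word were the leading summit of abd-A, the pair at 16936489 and 16936690 in Abd-B, and 16731648 in Ubx. The leading summit at bxd and all 19 summits between abd-A and Abd-B had none, as had 6 of the 8 sequences shown above. Of 180 copies of AAGTCA in the whole complex, 4 (2.22%) lay in these windows, which cover 1.5% of its sequence. The complex held 57.0 copies per 100 kb, and the arms held 58.0. The longer form AAAGTCA was at 3 of 47 summits, against 8.31% of all thresholded summits.

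The core word of Pho was frequent at summits of the complex. Pho is a DNA-binding protein that takes part in recruiting Polycomb complexes to response elements. GCCAT lay within 50 bp of 21 of 47 summits (44.7%, interval 30.2 to 59.9%), against 19.2% in the Antennapedia complex, 19.3% of all thresholded summits (interval 18.1 to 20.6%) and 21.1% of those over 500 bp from a start. Windows 500 bp to either side held it at 24.5% in the complex and 17.6% over all thresholded summits. More than 1 copy was present at 6 of 47 summits (12.8%), against 2.87% of all thresholded summits. The summit at 16869553, the strongest between abd-A and Abd-B, had 4 copies, all on 1 strand, and 4 was also the highest number at any thresholded summit of the series. The summits at 16811924 and 16826647 in abd-A had 3 each. By segment the word was at 10 of 19 summits between abd-A and Abd-B, 4 of 7 in abd-A, 3 of 8 in Ubx, 3 of 7 between Ubx and abd-A and 1 of 6 in Abd-B. Base composition differed as well. The median GC content of the windows was 49.5% in the complex, 47.5% in the Antennapedia complex and 44.6% over all thresholded summits. The Antennapedia complex thus had a higher GC content than all thresholded summits without a higher share of GCCAT. The sequence of the Bithorax complex as a whole had a GC content of 41.6%. It held 339.3 copies of GCCAT per 100 kb, against 236.3 over the arms. The part of base composition and of this density in the count was not tested.

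**Figure D5:**
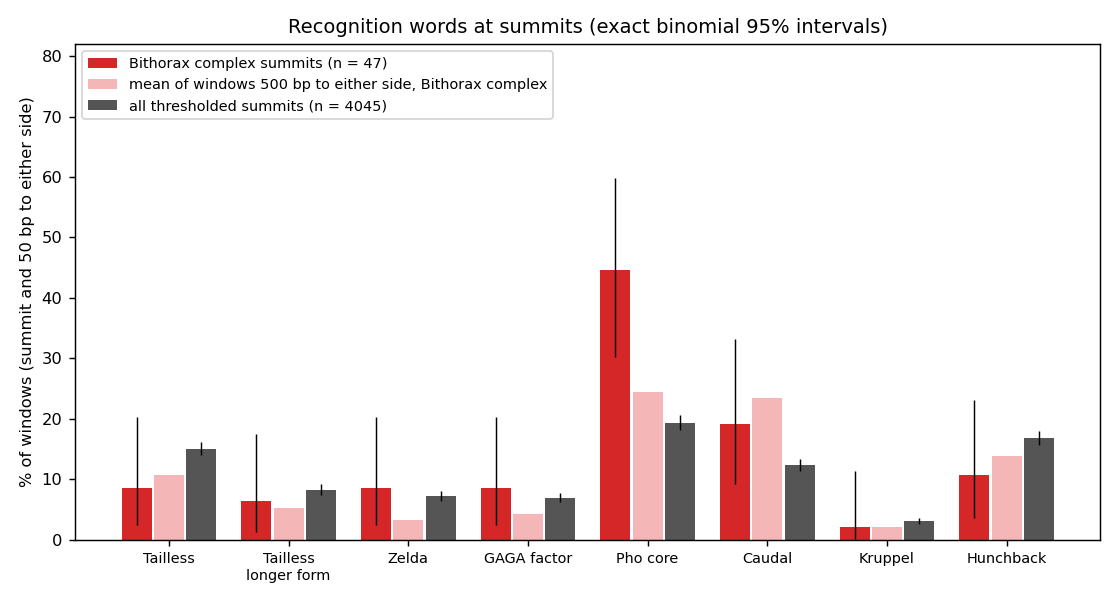
Share of windows (the summit and 50 bp to either side) that hold each word (y axis, %) for the recognition words of 7 regulators, with a longer form for Tailless (x axis): the 47 thresholded summits of the complex in red, the mean of their flanking windows in pink and all 4045 thresholded summits in grey. Error bars are exact binomial 95% intervals; the Pho core is the only word whose interval in the complex lies wholly above that of all thresholded summits.

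Other words were near the series as a whole. CAGGTA, the word of the early activator Zelda, was at 4 of 47 summits (8.51%), against 7.24% of all thresholded summits. GAGAGA, the word of GAGA factor, was at 4 of 47, against 6.97%. TTTATG (Caudal) was at 9 of 47 (19.1%), against 12.3%, TTTTTT (Hunchback) at 5 of 47 (10.6%), against 16.9%, and GGGTTA (Kruppel) at 1 of 47 (2.13%), against 3.07%. All these words were searched on both strands, AAAGTCA contains AAGTCA, and every interval in the complex included the share over all thresholded summits. A match does not show that a factor binds there.

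Genes of the same regulatory cascade were compared by whether a thresholded summit had its nearest start in them, within 20 kb, as 15.6% of 13945 protein-coding genes did. Of the 5 Hox genes of the Antennapedia complex all 5 did, led by Dfd, Antp and Scr with signal values of 1779, 1539 and 1055. Under this rule 29 summits went to these 5 genes. The strongest of the 52 summits in that complex, at 3700, went to none of them. The strongest summits of abd-A, Abd-B and Ubx under the same rule had values of 1552, 1512 and 1446. Of 6 gap genes, which set the limits of Hox expression, all 6 did, led by tll, kni and Kr. Among the Hox cofactor genes hth and tsh did, with 15 and 1 summits, and exd, which encodes the partner that binds DNA with Hox proteins, had none.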

How the data were processed

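Per the file headers, the deposited data are 4 peak lists on dm6: 1 per replicate, each from its alignment and 1 shared control alignment, 1 pooled list from both, and 1 thresholded list. The threshold and the tools behind the lists, with their versions, were not stated in any source at hand. The deposited signal value served to describe and rank summits. The deposited −log10 q-value was 4.26 for every entry of the thresholded list, and it was not used.

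The members, lists, words and comparisons were chosen with earlier results of these data known. Summits were placed with Ensembl release 115 genes (BDGP6.54), of which 1 list symbol was matched through a newer name, and sequence came from RefSeq's Release 6 assembly. A replicate value is that of the overlapping entry with the nearest summit. An overlap of 1 bp counted as shared. Both strands were searched for words, up to 50 bp from a summit. Python 3.11.15, numpy 2.4.6, pandas 2.3.3, scipy 1.17.1 and matplotlib 3.10.9 were used, and the search was tested on simulated data. Named by rule were the 3 Hox genes, the noncoding RNAs between them, the neighbouring genes, the 12 strongest summits, the strongest of each segment, those nearest to a start and those at the threshold, and up to 3 leading genes of each list. Other summits, the genes without a summit and the GCCAT capitals were chosen after their values were seen. Printed sequences avoid the untranslated exons of protein-coding genes. No p-values were computed, and the alternatives are given in the closing section.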

Additional observations from a re-analysis of the deposited data

Results flagged for a closer look

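Pooled summits of the complex below the threshold, which the word counts above did not use, were listed for a closer look because some of them held the word of Tailless. There were 11 of 169 with AAGTCA no more than 50 bp away (6.51%, exact binomial 95% interval 3.29 to 11.3%). Windows 500 bp to either side held it at 5.03%, inside that interval, so a higher share at these summits than beside them was not shown. Over the arms 9.09% of pooled summits below the threshold had the word, against 4.44% in their flanking windows. GCCAT lay at 50 of the 169 (29.6%, interval 22.8 to 37.1%), against 24.3% in the flanking windows. Over the arms 19.9% of pooled summits below the threshold had GCCAT, against 18.4% in their flanking windows.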

How the results depend on the processing

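Of 58 alternatives for 14 results, 51 stayed within 1.5 times the count, the counting interval or the replicate SD. Some of these could hardly do otherwise. Either of 2 replicates always lies within the SD of their mean. Leaving 1 out therefore says nothing about the log2 values of the strongest summits. The 20 kb flanks held no thresholded summit, so extending the region by them could not change the count. With the stronger part of the list alone the complex held 25 summits, the Ubx body 5, Ubx to abd-A 4, abd-A to Abd-B 9 and the Abd-B body 2, since fewer summits enter. With windows of 25 bp AAGTCA was at 2.13% of summits (8.28% of all thresholded), and with 100 bp at 12.8% (24.3%). Against all entries of the replicate lists 100% were shared, near the whole list, where 4039 of 4045 thresholded summits were. Without replicate 1 or without replicate 3 the complex held 42 or 43 summits, and AAGTCA was at 11.9% or 11.6% of them. With 1 summit per interval it held 41. No paired analysis was possible because there was 1 group. The unknown depth and the fixed length of the lists limit what lies below them.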

Other observations

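Genes for the proteins that maintain Hox states were read from the same lists. Of 20 Polycomb and trithorax group genes 12 had a thresholded summit nearest to one of their starts within 20 kb, against 15.6% of protein-coding genes. The strongest were at Psc, kis and ph-p, with signal values of 921, 728 and 709. Psc and ph-p encode subunits of a Polycomb repressive complex, and kis encodes a chromatin remodeller of the trithorax group. The genes pho and phol, for the Pho protein and its relative, had none. Of 10 genes for insulator proteins, which act at boundary elements, Cp190 and Trl had summits, with signal values of 495 and 491. This share of 20% was near the 15.6% of protein-coding genes, and Trl is also among the trithorax group genes. CTCF, which encodes another boundary protein of the complex, had none.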
